A study of Rattus norvegicus with 6 samples.

Results

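In rat dorsal root ganglia, which hold the cell bodies of sensory neurons, 6 genes best known from muscle were followed: Csrp3, Ankrd1, Flnc and Chrna1, chosen by their higher levels after nerve injury in these same libraries, and Acta1 and Myh1, taken as controls for muscle tissue. They are 6 of the 18696 genes with group averages and were found by gene symbol. The ganglia came from SD rats, an outbred laboratory strain, whose age is not given in the sources used here. For 3 libraries the surgery was spared nerve injury (SNI): the sural branch of the sciatic nerve was left whole, and its common peroneal and tibial branches were ligated and cut. In the other 3, the sham group, the sciatic nerve and its branches were exposed and the skin was closed. No genetic change and no agent was named for either group. The time after surgery, the side and spinal level, and whether a library holds 1 animal or several, are not given either, so the spread between libraries may be technical.

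In skeletal and heart muscle, actin and myosin filaments slide past each other in sarcomeres, which are joined end to end at the Z-disc. Csrp3 (muscle LIM protein, NCBI Gene ID 117505) is a small adaptor of the Z-disc that is also known from regenerating axons. Ankrd1 (cardiac ankyrin repeat protein, Gene ID 27064) binds the giant spring protein titin, moves to the nucleus under stress and is a well-known target of the transcription cofactor YAP. Flnc (filamin C, Gene ID 362332) cross-links actin at the Z-disc and at the cell membrane. Chrna1 (Gene ID 79557) is the acetylcholine-binding α1 subunit of the nicotinic receptor of muscle, which muscle fibres make in larger amounts when they lose their nerve. Acta1 (skeletal α-actin, Gene ID 29437) and Myh1 (a fast myosin heavy chain, Gene ID 287408) form the filaments themselves.

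The unit is TPM, which corrects reads for gene length and depth, so levels can be compared between genes. TPM per library was given for 1637 genes, among them Csrp3 and Flnc, and the other 4 muscle-type genes have a TPM and a read count averaged over the 3 libraries of each group. The authors' name for the set of 1637 marks its genes as differing between SNI and sham, and the rule behind it is not given. Shares of these genes called by a test therefore need not hold for all genes. Summed over genes, the average read counts came to 18.59 M in each group, and the depth of a single library is unknown. The 6 markers of the labelled tissue were present in both groups. Averages in the sham and SNI groups were 7588 and 4497 TPM for the neurofilament gene Nefl, 4726 and 6108 TPM for Tubb3, 2762 and 3393 TPM for Prph, 1157 and 1182 TPM for Calca, 220 and 170 TPM for the sodium channel Scn10a, and 58.4 and 46.3 TPM for Isl1.

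Csrp3 was nearly silent in sham ganglia and well expressed after SNI. The 3 sham libraries held 0.97, 0.53 and 0.41 TPM and the 3 SNI libraries 67.44, 74.94 and 73.09 TPM. The groups did not overlap, and the lowest SNI library stood at 69.5 times the highest sham library. The means were 0.637 ± 0.295 and 71.8 ± 3.91 TPM (SD, n = 3 each), a difference of 5.49 in log2(TPM + 1). The SE of this difference was 0.12 in the limma fit, which draws on the spread of all genes tested. Adding 1 TPM makes the fold of such a low gene look smaller than it is. In reads, 14 fell on Csrp3 in the 3 sham libraries together and 1700 in the 3 SNI libraries, a ratio of 121 with a 95% interval of 72.2 to 223 (exact Clopper-Pearson). The interval, as all read intervals here, covers counting error only and takes the deposited averages, times 3, as reads. In bulk tissue, more cells of a type and more RNA per cell cannot be told apart.

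Ankrd1 showed a similar pattern at a lower level. Its averages were 0.370 and 19.1 TPM (sham, then SNI, as in all pairs of averages that follow), from 18 and 908 reads. The read ratio was 50.4 (95% interval 31.7 to 85.5). No values per library were used for Ankrd1, so its spread within a group is unknown. Of the 4175 genes with a sham average under 1 TPM, 17 stood at 10 TPM or more in SNI, and both Csrp3 and Ankrd1 were among them. By the log2 ratio of group averages with 1 TPM added to each, Csrp3 stood 5th and Ankrd1 15th from the top of 18696 genes.

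Flnc, in contrast, was present in sham ganglia and higher in each SNI library. The sham libraries held 2.42, 2.46 and 2.36 TPM and the SNI libraries 6.98, 7.61 and 7.99 TPM. The groups did not overlap, and the lowest SNI library was 2.84 times the highest sham library. The means were 2.41 ± 0.0503 and 7.53 ± 0.510 TPM (SD, n = 3 each), a difference of 1.32 (SE 0.09 in the same limma fit) in log2(TPM + 1). The read ratio was 3.14 (95% interval 2.86 to 3.44), from 602 and 1889 reads.

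Chrna1 averaged 3.13 and 7.15 TPM, with a read ratio of 2.30 (95% interval 1.90 to 2.79). Its averages were not whole when multiplied by 3 (tolerance 0.01), and whether its reads were shared with other genes in the counting was not tested. Flnc and Chrna1 stood at places 217 and 453 of 18696 by the log2 ratio of averages. These 4 genes were selected on the difference between SNI and sham, so it is described here and not tested. All 4 were in the authors' deposited list of genes higher in SNI, which holds 3.63% of the genes with averages. That count follows from the choice and nothing is read from it.

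**Figure D1:**
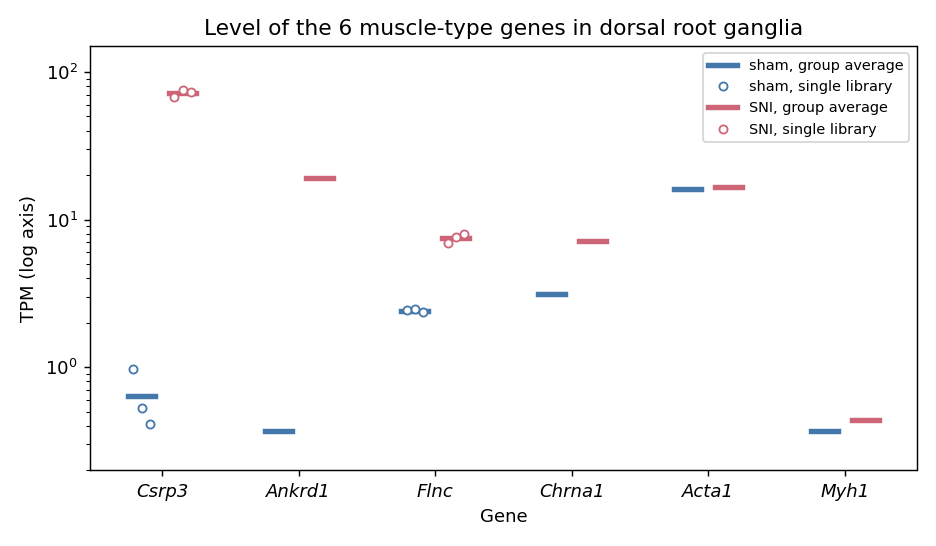
TPM (log axis) of the 6 muscle-type genes in sham (blue) and SNI (red) ganglia. Thick lines are group averages of 3 libraries, and open circles are the single libraries of Csrp3 and Flnc. Csrp3 goes from 0.637 to 71.8 TPM and Ankrd1 from 0.370 to 19.1 TPM, while the averages of Acta1 and of Myh1 lie close together.

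The 2 control genes stood close to their sham level. Acta1 averaged 15.98 and 16.5 TPM, with a read ratio of 1.04 (95% interval 0.930 to 1.16). Myh1 averaged 0.367 and 0.437 TPM, from about 59.9 and 73.1 reads, with a read ratio of 1.22 (95% interval 0.853 to 1.74). Neither was in the authors' lists. Both intervals include 1, and for Myh1 the depth leaves room for a difference of the size of the upper bound. Acta1 and Myh1 have close relatives in the genome and neither had whole averages when multiplied by 3, so reads may have been divided among actins and among myosins.

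In sham the order of levels from the top was Acta1, Chrna1, Flnc, Csrp3, Ankrd1 and Myh1. In SNI it was Csrp3, Ankrd1, Acta1, Flnc, Chrna1 and Myh1. The SNI average of Chrna1, 7.15 TPM, lay within the range of the 3 SNI libraries of Flnc, so these neighbours cannot be put in order. Ankrd1 and Myh1 differed by less than 0.01 TPM in sham. Of the other neighbouring pairs, no pair has values per library for both genes except Flnc and Csrp3 in sham, whose libraries did not overlap.

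The promoters of Chrna1 and Flnc, which were higher in SNI, and of Acta1, which was not, are shown to compare the muscle control elements they hold. Promoter windows, from 250 bases before to 50 after the start of a gene, were taken from RefSeq (build GRCr8), where 4 of the 6 genes matched. They were Flnc, Chrna1, Acta1 and Myh1. The start used by the table was the annotated start of the gene for Chrna1 and Acta1 and lay 102 bases inside it for Flnc and Myh1, and distances are counted from the start used. Capitals mark matches on either strand to the TEAD motif GGAATG, the AP-1 motif TGANTCA, the CRE TGACGTCA, the E-box CANNTG bound by myogenic factors, and the CArG box bound by serum response factor.
Chrna1, chr3:78877304-78877603, minus strand: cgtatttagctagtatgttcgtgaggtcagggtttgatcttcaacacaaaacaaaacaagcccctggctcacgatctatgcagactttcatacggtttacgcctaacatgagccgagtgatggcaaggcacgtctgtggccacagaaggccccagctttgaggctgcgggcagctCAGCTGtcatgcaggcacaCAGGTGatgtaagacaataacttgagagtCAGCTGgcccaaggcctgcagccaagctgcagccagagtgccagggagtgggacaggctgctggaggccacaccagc
Flnc, chr4:58999297-58999596, plus strand: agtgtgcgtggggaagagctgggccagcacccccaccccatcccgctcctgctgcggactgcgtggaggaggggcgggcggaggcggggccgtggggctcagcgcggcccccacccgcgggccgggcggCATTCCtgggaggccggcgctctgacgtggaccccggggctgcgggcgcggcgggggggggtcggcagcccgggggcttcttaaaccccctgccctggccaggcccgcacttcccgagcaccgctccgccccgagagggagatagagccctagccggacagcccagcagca
Acta1, chr19:68784145-68784444, minus strand: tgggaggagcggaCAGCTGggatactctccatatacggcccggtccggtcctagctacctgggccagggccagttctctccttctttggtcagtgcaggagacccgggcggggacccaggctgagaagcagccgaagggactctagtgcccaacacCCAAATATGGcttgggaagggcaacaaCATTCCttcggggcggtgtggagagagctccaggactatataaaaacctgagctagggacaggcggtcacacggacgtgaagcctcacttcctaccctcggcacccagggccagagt

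Chrna1 held 3 E-boxes, starting 75, 56 and 27 bases before the start, and no match to the other motifs. An E-box stood in 72.1% of the 33469 promoters of the table. Flnc held 1 TEAD match, 121 bases before the start, and none of the others. Acta1 held a TEAD match, an E-box and a CArG box, CCAAATATGG, and Myh1 a TEAD match and an AP-1 match. TEAD matches stood in 14.2% of all promoters, CArG boxes in 1.64%, AP-1 matches in 7.33% and CRE matches in 1.83%. Thus a TEAD match was present in 1 of the 2 genes that were higher and in both control genes. The motifs searched do not overlap each other in these windows, and a match is not a measured binding site.

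Averages of the other skeletal muscle genes lay on both sides of their sham level. Besides Acta1 and Myh1, 33 contractile and metabolic genes of skeletal muscle had averages. Averages were higher in SNI for 13 and lower for 20, with a median log2 ratio of -0.040 beside 0.017 over all genes. None was in the authors' higher list and 1, Mybpc1, was in their lower list. Since these lists hold 3.63% and 0.695% of all genes, a short list of any genes would be expected to have few or none in them, and the counts of 0 given for the lists of genes that follow are near that share. The read interval included 1 for 20 of the 33, lay above 1 for 7 and below 1 for 6. The largest read ratio, 3.40 (95% interval 1.20 to 11.8), was that of Sln, a small inhibitor of the muscle calcium pump, from 5 and 17 reads. The others with an interval above 1 were Tnnc1, Neb, Actn2, Mybpc2, Tpm1 and Tpm2. Tnnc1 averaged 10.1 and 13.6 TPM (read ratio 1.35, 95% interval 1.07 to 1.71) and Neb 1.13 and 1.43 TPM (1.29, 1.16 to 1.42). Those with an interval below 1 were Mybpc1, Myh4, Ckm, Ttn, Pgam2 and Pygm. Of these, the fast myosin Myh4 averaged 0.293 and 0.120 TPM (read ratio 0.408, 95% interval 0.230 to 0.699) and the creatine kinase Ckm 2.58 and 1.79 TPM. The fast light chain Mylpf averaged 2.68 and 1.89 TPM and the oxygen store Mb 1.04 and 0.870 TPM, and both intervals included 1. The 35 genes summed to 425 and 446 TPM, of which Tpm1, a tropomyosin also made outside muscle, gave 330 and 350 TPM. Without Tpm1 the other 34 genes summed to 94.7 and 96.0 TPM. Among them Pgam2, a muscle phosphoglycerate mutase, averaged 14.99 and 12.5 TPM. Tpm2, the 1 gene of the 33 tested with limma, did not pass (16.3 ± 1.21 and 18.2 ± 1.55 TPM, SD, n = 3, limma adjusted p = 0.13).

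Of the genes of embryonic and regenerating muscle, 5 had averages and none of them was in the authors' lists. Myf5, Myod1, Myog, Myf6 and Pax7, the factors that define muscle precursors, were looked for by symbol and matched no gene with values. The embryonic and perinatal myosins Myh3 and Myh8 averaged 0.223 and 0.300 TPM and 1.59 and 1.39 TPM, and the muscle fusion gene Mymk 0.157 and 0.103 TPM. Pax3 averaged 0.357 and 0.220 TPM. Mef2c, a transcription factor of muscle and neurons, stood at 9.63 ± 0.763 and 8.40 ± 0.168 TPM (SD, n = 3) and did not pass (limma adjusted p = 0.072). Mef2c did pass, as lower in SNI, after quantile normalization (limma adjusted p = 0.00076), without the trend (0.04) and without sham replicate 2 (0.028).

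**Figure D2:**
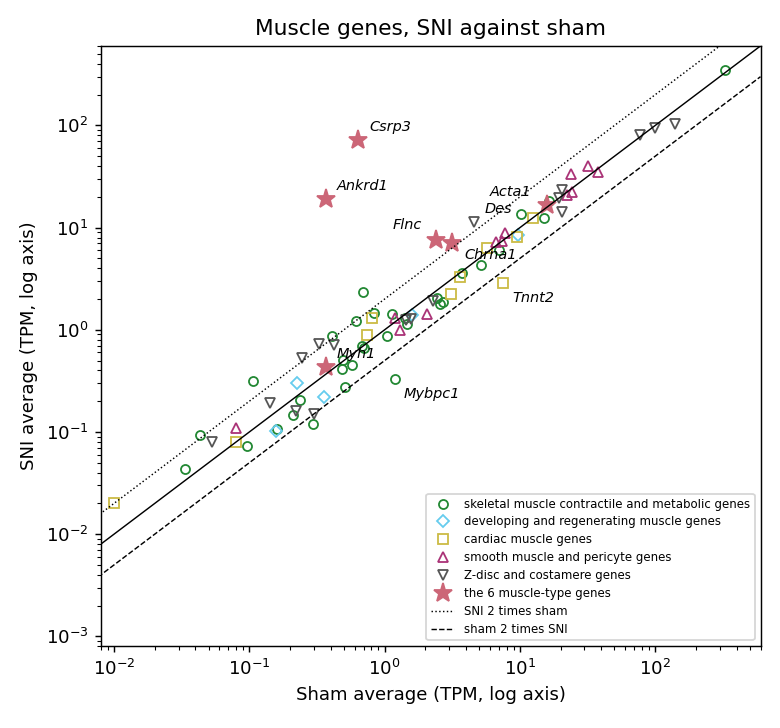
Average TPM in SNI (y, log axis) against sham (x, log axis), 1 symbol a gene, for lists of muscle genes (open symbols) and the 6 muscle-type genes (stars). The solid line marks equal averages, and the dotted and dashed lines a ratio of 2 in either direction. Csrp3 and Ankrd1 lie farther above the solid line than the other genes, and Acta1 and Myh1 lie near it.

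At the Z-disc and the costamere, the membrane anchor of the sarcomere, 3 of 17 other genes with averages were in the authors' higher list, beside 3.63% of all genes, and none in the lower list, beside 0.695%. Desmin (Des), the intermediate filament of muscle, averaged 4.57 and 11.3 TPM, with a read ratio of 2.50 (95% interval 2.17 to 2.89). Xirp2, an actin-binding Xin repeat protein, averaged 0.243 and 0.530 TPM, with a read ratio of 2.19 (1.67 to 2.88). Its relative Xirp1 averaged 0.330 and 0.730 TPM from 23 and 78 reads. These 3 genes have no test here. Csrp3's binding partner Tcap, the titin cap, averaged 0.220 and 0.160 TPM, from 4 and 3 reads. Synm, a filament protein that pairs with desmin, fell from 140 ± 11.2 to 104 ± 2.21 TPM (SD, n = 3 each, log2 fold change -0.42, limma adjusted p = 0.0003), the 1 other gene of the list that was tested. In the limma fit 32% of 1596 genes were higher and 29.2% lower in SNI, so that 52.3% of the calls were higher, against 39.8% after quantile normalization. These shares are over the set that the authors named for its differences, and not over all genes. Smpx, a small protein of stretched muscle, averaged 20.3 and 14.2 TPM, and the more abundant Cfl2 and Fhl1 averaged 99.96 and 94.3 TPM and 77.7 and 80.1 TPM. The median log2 ratio of the 17 genes was -0.0049, with 8 averages higher and 9 lower.

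Csrp3 was the 1 gene of its family in the authors' higher list. Its closest relatives were far more abundant in sham. Csrp1, the form found in many tissues, stood at 290 ± 6.37 and 296 ± 2.66 TPM and did not pass (SD, n = 3, limma adjusted p = 0.5). Csrp2, the smooth muscle form, held 18.98, 21.22 and 17.47 TPM in the sham libraries, against 13.15, 16.43 and 13.72 TPM after SNI. The Csrp2 groups did not overlap, and it fell by 0.39 on the log2 scale (limma adjusted p = 0.0067). Crip1 fell by 0.26 on the log2 scale (limma adjusted p = 0.035), a call lost without the trend or the filter and without SNI replicate 2 or 3 or sham replicate 2 or 3 (limma adjusted p from 0.054 to 0.098). Crip2 averaged 780 and 635 TPM. In SNI, Csrp3 stood at 71.8 TPM, between Csrp1 and Csrp2.

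Of the other muscle ankyrin repeat proteins, Ankrd2 averaged 0.0667 and 0.167 TPM, from 2 and 5 reads (read ratio 2.50, 95% interval 0.409 to 26.3). Ankrd23 averaged 0.360 and 0.343 TPM, from 23 reads in each group. A rise of the size seen for Ankrd1 lies outside the intervals of both genes.

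Flna, the filamin of most cells, was more abundant than Flnc in each group. It held 31.82, 29.87 and 31.49 TPM in the sham libraries, against 39.12, 40.05 and 40.07 TPM after SNI. The Flna groups did not overlap, and it rose (log2 fold change 0.35, limma adjusted p = 0.0003). Of the chaperones that tend filamins, Hspb1, a small heat shock protein also known as an injury gene of sensory neurons, rose from 714 ± 26.1 to 1565 ± 8.18 TPM (SD, n = 3, log2 fold change 1.13, limma adjusted p = 2.3e-08) and was in the authors' higher list. Hspb7, a small heat shock protein of muscle, averaged 2.11 and 4.15 TPM, with a read ratio of 1.98 (95% interval 1.55 to 2.54), and was in neither list. Hspb8 averaged 356 and 410 TPM, its partner Bag3 225 and 204 TPM, the ubiquitin ligase Stub1 269 and 240 TPM, and the Bag3-binding Synpo2 1.45 and 1.26 TPM.

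**Figure D3:**
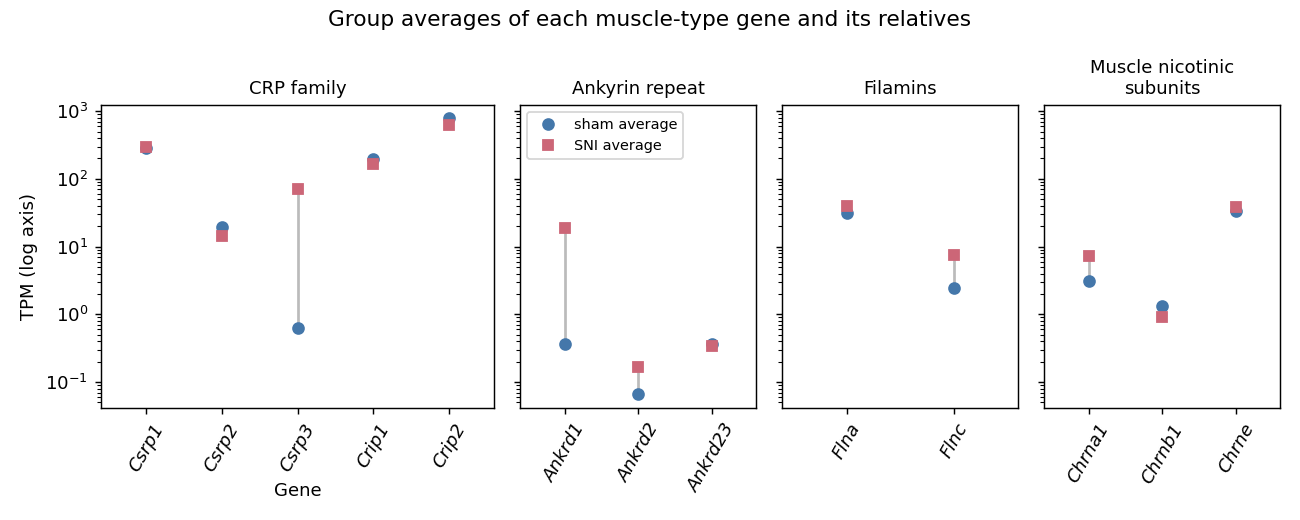
Average TPM (log axis) in sham (blue circles) and SNI (red squares) for each muscle-type gene and its relatives, in 4 panels. The lines from sham to SNI are long for Csrp3 and Ankrd1, shorter for Flnc and Chrna1, and short for Csrp1, Csrp2, Ankrd23, Flna and Chrne.

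The adult muscle receptor joins α1 with the β1 (Chrnb1), δ (Chrnd) and ε (Chrne) subunits, and the fetal one has γ (Chrng) in place of ε. Chrnd and Chrng were looked for by symbol and matched no gene with values. Chrnb1 averaged 1.32 and 0.907 TPM, with a read ratio of 0.667 (95% interval 0.463 to 0.952), in the opposite direction to Chrna1. Chrne held 34.63, 33.08 and 31.82 TPM in the sham libraries, against 37.08, 40.19 and 37.07 TPM after SNI. The Chrne groups did not overlap, and it rose (log2 fold change 0.19, limma adjusted p = 0.017), a call lost after quantile normalization (0.11), without SNI replicate 2 (0.08) and without sham replicate 3 (0.065). The averages of Chrne, like those of Chrna1, were not whole when multiplied by 3. In SNI, Chrne stood at 38.1 TPM, Chrna1 at 7.15 TPM and Chrnb1 at 0.907 TPM.

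Genes that build the nerve-muscle synapse were in neither of the authors' lists (7 genes). The nerve-derived organizer agrin (Agrn) rose from 20.3 ± 1.69 to 27.5 ± 0.944 TPM (SD, n = 3, log2 fold change 0.43, limma adjusted p = 0.00062). Colq, the tail that anchors acetylcholinesterase, had a log2 fold change of 0.34 (limma adjusted p = 0.013), which was lost without SNI replicate 3 (0.057) and turned to -0.044 after quantile normalization (0.63). Averages of the receptor clustering protein Rapsn were 3.74 and 2.47 TPM, of the adaptor Dok7 6.497 and 4.93 TPM, of the kinase Musk 0.737 and 0.623 TPM, of the agrin receptor Lrp4 4.62 and 5.14 TPM, and of the esterase Ache 373 and 279 TPM. Rapsn, with a read ratio of 0.693 (95% interval 0.541 to 0.884), was thus lower beside the higher Chrna1.

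Of the 10 neuronal nicotinic subunits with averages, 4 were higher in SNI and 6 lower, and none was in the authors' lists, which is near the share over all genes (3.63% and 0.695%). Of 4 tested with limma, none rose, Chrnb3 and Chrnb4 fell, and Chrna3 and Chrna7 did not pass, beside 32% higher and 29.2% lower over all genes tested. Chrnb3 fell from 27.8 ± 1.52 to 20.3 ± 1.04 TPM (SD, n = 3, log2 fold change -0.43, limma adjusted p = 0.00033). Chrnb4 had a log2 fold change of -0.18 (limma adjusted p = 0.033), lost with the replicate block (0.071) and without SNI replicate 2 or 3 or sham replicate 2 or 3 (limma adjusted p from 0.063 to 0.13). Chrna3 averaged 91.2 and 90.7 TPM (limma adjusted p = 0.89) and Chrna7 23.0 and 21.3 TPM (0.29, but 0.01 and lower in SNI after quantile normalization). Chrnb2 averaged 83.7 and 104 TPM, Chrna6 36.0 and 44.3 TPM, Chrna5 6.81 and 6.21 TPM and Chrna4 1.18 and 1.32 TPM, while Chrna2 and Chrna10 stayed under 1 TPM in both groups. The highest read ratio of the 10 was that of Chrna10, 1.43, from 7 and 10 reads, and its 95% interval, 0.491 to 4.42, includes the ratio of Chrna1, 2.30. The next were Chrnb2 (1.25, 1.21 to 1.30) and Chrna6 (1.24, 1.16 to 1.32).

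Ankrd1 is a YAP target, and 9 other targets were looked at. None of the 9 was in the authors' lists, and averages were higher in SNI for 4 and lower for 5, with a median log2 ratio of -0.052. Ccn2, a matrix protein and a standard YAP readout, fell from 13.6 ± 1.37 to 7.89 ± 0.269 TPM (SD, n = 3, log2 fold change -0.71, limma adjusted p = 6.2e-05). Ccn1 had a log2 fold change of 0.32 (limma adjusted p = 0.012), lost without sham replicate 3 (0.052) and at -0.079 after quantile normalization (0.43). Ajuba, an adaptor in the same pathway, averaged 8.42 and 4.92 TPM and Amotl2 13.95 and 10.2 TPM, while the receptor kinase Axl averaged 30.4 and 47.0 TPM and the coagulation factor F3 6.09 and 8.25 TPM. Lats2, Crim1 and Ptpn14 averaged 33.1 and 31.9 TPM, 4.38 and 5.45 TPM, and 3.52 and 2.78 TPM. Yap1 averaged 31.0 and 33.9 TPM, its relative Wwtr1 13.6 and 15.45 TPM, and the partner Tead1 10.4 and 13.1 TPM, and none of the 7 factors of the pathway was in the authors' lists. The others, Tead2, Tead3, Tead4 and Vgll3, had log2 ratios of 0.27, -0.24, 0 and -0.20.

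Smooth muscle and pericyte genes, which belong to vessel walls, had a median log2 ratio of 0.02 over 12 genes, and none was in the authors' lists. Of 3 tested with limma, Acta2 rose from 31.7 ± 1.43 to 40.0 ± 2.76 TPM (SD, n = 3, log2 fold change 0.33, limma adjusted p = 0.0021), and Rgs5 rose from 23.9 ± 0.897 to 33.4 ± 2.07 TPM (log2 fold change 0.46, limma adjusted p = 0.00018), while Tagln did not pass (limma adjusted p = 0.3). Myh11, the smooth muscle myosin, averaged 6.64 and 7.16 TPM.

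Some markers of other cell types differed between the same groups. Of 6 macrophage genes, 4 (Cd68, Aif1, Itgam and Adgre1) were in the authors' higher list, beside 3.63% of all genes. The 6 summed to 95.5 and 216 TPM, with a median log2 ratio of 1.30. Mrc1, the 1 of them tested with limma, did not pass (limma adjusted p = 0.073, but 0.036 and higher in SNI without the trend). Of 10 genes of injured sensory neurons, all were in the authors' higher list, beside the same 3.63%, with a summed level of 1181 and 5158 TPM and a median log2 ratio of 2.84. The 10 were chosen as genes known to rise in such ganglia. Among them Atf3, a transcription factor of axon injury, had a read ratio of 35.7 (95% interval 32.4 to 39.5), and Sox11, another such factor, 10.2 (8.37 to 12.4). The 6 sensory neuron genes, none of them in a list, summed to 16512 and 15396 TPM, a net value of 3 higher averages (Tubb3, Prph and Calca) and 3 lower ones (Nefl, Scn10a and Isl1), with a median log2 ratio of -0.15. Of these, Scn10a fell (log2 fold change -0.37, limma adjusted p = 0.00053) and Calca did not pass (limma adjusted p = 0.52). The 6 genes of satellite glia and Schwann cells, none in a list either, summed to 9009 and 5202 TPM. None of these markers was at 0 in the group averages. The part that macrophages, neurons or glia had in the differences of Csrp3, Ankrd1, Flnc and Chrna1 was not tested. The 7 genes of fibroblasts and fat had a median log2 ratio of -0.0045 and summed to 823 and 781 TPM. Of 4 tested with limma, Col1a2 rose (limma adjusted p = 0.047, but 0.072 without the trend). Dcn fell (limma adjusted p = 0.016, but 0.065 without SNI replicate 1), and Col1a1 and Lum did not pass. The fat genes Adipoq and Plin1 averaged 0.0767 and 0.0733 TPM and 0.123 and 0.127 TPM, from 3 and 7 reads in each group.

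**Figure D4:**
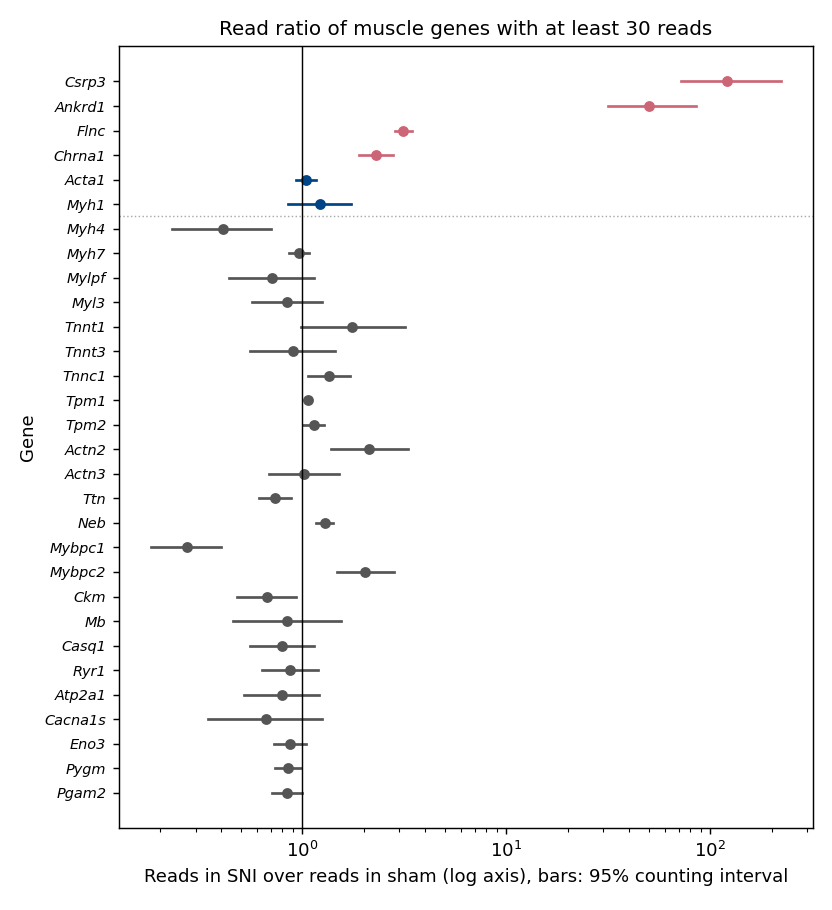
Reads in SNI over reads in sham (log axis) with 95% counting intervals for the 6 muscle-type genes (red and blue) and the 24 other skeletal muscle genes with at least 30 reads in the 6 libraries together (grey). The intervals of Csrp3, Ankrd1, Flnc and Chrna1 lie above 1, at 121, 50.4, 3.14 and 2.30, and those of Acta1 and Myh1 include 1.

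The genes beside Csrp3, Ankrd1, Flnc and Chrna1 on the chromosome were also looked at, as the 2 nearest protein-coding genes with averages on each side in RefSeq gene order (GRCr8). None of these 16 neighbours was in the authors' lists, a count near the share over all genes (3.63% and 0.695%). The direct neighbours of Csrp3, Zdhhc13 and E2f8, averaged 21.3 and 21.7 TPM and 0.120 and 0.297 TPM. Those of Ankrd1, Rpp30 and Pcgf5, averaged 35.3 and 36.9 TPM and 3.09 and 4.90 TPM. For Flnc they were Ccdc136 (126 and 124 TPM) and Atp6v1f (437 and 422 TPM), and for Chrna1 they were Wipf1 (22.1 and 28.2 TPM) and Chn1 (91.4 and 83.8 TPM). Over the 16, the ratio of average TPM ran from 0.673 (Htr7) to 2.79 (Mrgprb3, at 0.0467 and 0.130 TPM).

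Among genes with values in the 6 libraries and a mean of at least 5 TPM (1472 genes), the pattern of Csrp3 was closest to those of Reg3b, Serpina3n, Gal, Lce1f and Tgm1. Likeness was the root mean square difference of log2(TPM + 1), centred on the sham mean, which was 0.30, 0.56, 0.60, 0.69 and 1.00 for these genes. This measure largely follows the difference between SNI and sham, on which Csrp3 and Flnc were chosen. That the closest genes are also higher in SNI follows from it. Reg3b, a secreted lectin, averaged 0.967 and 93.8 TPM, and Serpina3n, a protease inhibitor, 0.773 and 132 TPM. For Flnc the closest included Chi3l1, Slc14a1, Abca1 and LOC103689965, at 0.05, 0.06, 0.07 and 0.07. Chi3l1, a chitinase-like protein, averaged 9.14 and 23.7 TPM. Slc14a1, a urea transporter, averaged 2.95 and 9.14 TPM, and Abca1, which exports cholesterol, 14.9 and 37.9 TPM.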

How the data were processed

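RNA from dorsal root ganglia of 3 SNI and 3 sham rat libraries was sequenced. Per the labels' protocols, the extraction was done with Trizol or a mirVana kit and the libraries with a TruSeq or a NEBNext Ultra kit, as both are named. The sources used here do not name an aligner, a counter, a genome build, the use of strand or the test behind the authors' lists. The deposited tables hold, per the file headers, TPM per library for 1637 genes (25.8% to 27.1% of each library's total), and for 18696 genes the TPM and read count averaged over each group. Many deposited counts are fractions even after multiplying by 3, so they are treated as estimated counts, with no scaling named in the headers. Columns named control were taken as sham. The authors' lists hold 699 higher and 136 lower genes, 678 and 130 of them with averages.

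Values per library were tested as log2(TPM + 1) with limma 3.58.1 (R 4.3.3), intensity trend, group as the only term, over the 1596 genes whose mean reached 1 TPM, at a Benjamini-Hochberg adjusted p under 0.05. The test was checked on simulated data. Other values were computed with Python 3.11.15 and scipy 1.17.1. Read ratios are the averages times 3, scaled to the group totals, with exact 95% intervals. Lists (18, with 165 of 176 genes matched, 2 by current RefSeq symbol) were described by counts and medians. The 6 genes and the lists were chosen with earlier results of these data known. The rule for named genes took the 6, the genes of lists of up to 12 and, in longer lists, up to 6 called or listed genes and the 3 highest in sham, with the 5 closest patterns. A few of these genes are not reported here. Cardiac, smooth muscle and marker lists are given by sums, medians and some of their genes. Ckm, Mylpf, Mb, Sln, Pgam2, Tnnc1, Neb, Actn2, Mybpc2, Tcap and Smpx fall outside the rule and were named after their values were seen. The same holds for Myh4, Ttn and Pygm. Alternatives were the pseudocount, filter, trend, quantile normalization, replicate block and leaving out each library.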

Additional observations from a re-analysis of the deposited data

How the results depend on the processing

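The log2 fold change of Csrp3 ran from 5.26 (quantile normalization) to 6.68 (pseudocount 0.1) and that of Flnc from 1.03 to 1.60 over the same settings, and without 1 library from 5.39 to 5.63 and from 1.28 to 1.37. The log2 ratio of group averages, 5.48 for Csrp3, 3.88 for Ankrd1 and 1.32 for Flnc with a pseudocount of 1, was 6.61, 5.35 and 1.60 with 0.1, and from read counts 6.65, 5.44 and 1.64. For Flnc it was 1.46 with 0.5. A smaller added value raises the ratio of low genes by construction. Quantile normalization turned Colq to -0.044 and Ccn1 to -0.079. It gave 402 higher and 608 lower genes, against 510 and 466 as deposited, and the cause was not tested. Without 1 library the counts ran from 445 to 524 and from 387 to 477. With the replicate block they were 498 and 447. The shared replicate numbers did not pair the libraries (correlations of deviations -0.088, -0.059 and 0.188; not every library correlated best with its own number), and the block ended 1 call among the named genes, that of Chrnb4. Of 452 values of 35 named genes under other settings, 413 kept their side of the threshold or, for Csrp3 and Flnc, moved by less than the spread between libraries. With the ratio of averages of at least 2 in place of the authors' lists, the same number of muscle-type genes, 4, stood above it. That count follows from their choice by this same difference, and nothing is read from it. The 14 sham reads of Csrp3 and 18 of Ankrd1 limit their folds, and 4 of the 6 genes have no replicate values.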

Other observations

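A few muscle genes lay on the other side of the comparison. Tnnt2, the troponin T of heart and embryonic muscle, averaged 7.53 and 2.90 TPM (sham, then SNI), from 233 and 91 reads, and was in the authors' lower list (read ratio 0.391, 95% interval 0.303 to 0.4997). Mybpc1, the myosin-binding protein C of slow muscle, averaged 1.19 and 0.333 TPM, from 125 and 34 reads, and was in that list too (read ratio 0.272, 95% interval 0.180 to 0.400). Among the other cardiac genes, Nppa, the atrial natriuretic peptide, averaged 12.5 and 12.5 TPM, the calcium release channel Ryr2 9.55 and 8.13 TPM, and the myosins Myh6 and Myh7 5.69 and 6.27 TPM and 3.72 and 3.61 TPM. The median log2 ratio of the 10 cardiac genes with averages was -0.0020. The actin-bundling Actn2 and the fast Mybpc2 had read ratios of 2.12 (95% interval 1.38 to 3.31) and 2.03 (1.48 to 2.82), at averages of 0.867 and 1.22 TPM in SNI, outside the authors' lists.

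For Xirp1 reads and TPM gave different folds. Its read ratio was 3.39 (95% interval 2.11 to 5.66) while its average TPM went from 0.330 to 0.730. The reads for each TPM went from 23.2 in sham to 35.6 in SNI, where Xirp2 stood at 111 and 111, Flnc at 83.1 and 83.7, Ankrd1 at 16.2 and 15.8, and Csrp3 at 7.33 and 7.89.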
